A study of Mus musculus with 15 samples.

Results

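*Rbbp5* and 7 other genes for subunits of the complexes that methylate lysine 4 of histone H3 (H3K4) were followed in mouse brain. The set was chosen by name: *Rbbp5*, *Wdr5*, *Ash2l*, *Dpy30*, *Setd1a*, *Setd1b*, *Men1* and *Cxxc1*. The RNA-seq table lists 23235 genes and has a row for 7 of these 8. No transcript level of *Setd1b* is given here. All 8 genes have a place in the annotation, so all 8 could be compared with the peak lists.

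The SET1 and MLL complexes put methyl groups on H3K4, a mark of active promoters and, in its monomethyl form, of enhancers. Their enzymes are SETD1A, SETD1B and the MLL proteins, which methylate poorly alone. RBBP5, WDR5, ASH2L and DPY30 form the core that these complexes share and that raises the activity of the enzyme. CXXC1 belongs to the SET1 complexes and binds unmethylated CpG DNA, and MEN1 (menin) belongs to a subset of the MLL complexes. The study asked which proteins and which DNA associate with *116HG*, the spliced RNA of the host gene of the *Snord116* small nucleolar RNAs, and probed RBBP5 as one such protein.

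RNA was taken from the cortex of adult WT C57BL/6J mice and of their adult *Snord116del* littermates, of the strain B6(Cg)-Snord116tm1.1Uta/J. These carry a germline deletion of the *Snord116* cluster in every cell, labelled +/- and passed on through the father, so the locus is lost from the allele that is transcribed. Zeitgeber time (Zt) counts hours from lights on, and mice were sampled at Zt +6, in the light, or at Zt +16, in the dark. The groups held 3 WT and 2 *Snord116del* mice at Zt +6 and 2 mice of each genotype at Zt +16, and every gene has 1 FPKM value per group (fragments per kilobase of transcript, scaled to the sequenced fragments). DNA peaks came from chromatin isolation by RNA purification (ChIRP), in which biotinylated oligos pull an RNA out of cross-linked tissue with the DNA bound to it. Of the 5 libraries, all from adult brain, 2 used *116HG* oligos on WT tissue (replicates 1 and 2), 1 used non-specific control (NSC) oligos on WT tissue, and 1 of each kind of oligo was used on *Snord116del* tissue.

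The 4 groups differed in scale, from a median of 2.90 FPKM in WT at Zt +16 to 5.63 in *Snord116del* at Zt +6 over the 10297 genes whose mean reached 1 FPKM, which are the genes tested below. The table hides the spread between mice, so no statistical test was possible. A gene was counted as higher or lower by a fold rule: FPKM + 1 had to differ by 1.5-fold or more, and the higher group had to reach 1 FPKM. The *Snord116* row was listed at 0 in all 4 groups, so it checks no genotype. *Ipw*, a noncoding gene next to the deleted cluster, had 21.6 FPKM in WT against 3.40 in the deletion group at Zt +6, and 3.17 against 1.82 at Zt +16. Markers of neurons (6 genes), astrocytes (5), oligodendrocytes (5), microglia (5), endothelium (5) and choroid plexus (4) were all listed above 0. Their summed FPKM in WT and *Snord116del* at Zt +6 was 707 and 992 for neurons, 33.3 and 98.5 for astrocytes, 427 and 682 for oligodendrocytes, 26.3 and 52.2 for microglia, 8.78 and 22.7 for endothelium and 203 and 185 for choroid plexus. In bulk tissue, fewer cells of a type and less RNA per cell cannot be told apart.

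Transcripts of all 7 subunits with values were present in every group, at low to moderate levels. *Cxxc1* and *Dpy30* were the most abundant and *Wdr5* the least in each of the 4 groups. In WT cortex at Zt +6 the order by FPKM, a level per length of transcript, was *Cxxc1* (9.37), *Dpy30* (8.29), *Men1* (5.50), *Ash2l* (3.13), *Rbbp5* (2.99), *Setd1a* (2.65) and *Wdr5* (1.38). *Cxxc1* was thus at 6.80 times the level of *Wdr5*. Whether neighbours in this order, such as *Ash2l* and *Rbbp5*, differ beyond the spread between mice cannot be said.

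Among the core subunits, *Rbbp5* had 2.99 FPKM in WT against 6.54 in the deletion group at Zt +6, and 2.64 against 3.55 at Zt +16. Its level was highest in the deletion group in the light, and lay close together in the other 3 groups. *Wdr5*, which binds the tail of histone H3 and holds the complex together, had 1.38 against 1.92 FPKM at Zt +6 and 1.38 against 1.78 at Zt +16. *Ash2l*, which pairs with RBBP5 to activate the enzyme, had 3.13 against 4.93 at Zt +6 and 3.50 against 5.24 at Zt +16. The deletion group was at 1.39 and 1.29 times the WT level of *Wdr5* at the 2 times, and at 1.58 times that of *Ash2l* at Zt +6. *Dpy30*, the small subunit that binds ASH2L, had 8.29 FPKM in WT against 6.83 in the deletion group at Zt +6, and 12.9 against 16.4 at Zt +16. It was the one member with a lower level in the deletion group in the light, where 77.6% of all tested genes had a higher level in that group.

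The enzyme *Setd1a* had 2.65 FPKM in WT against 6.29 in the deletion group at Zt +6, and 1.54 against 1.84 at Zt +16. Like *Rbbp5*, it stood highest in the deletion group in the light. *Men1* had 5.50 against 6.65 at Zt +6 and 5.41 against 7.99 at Zt +16. *Cxxc1* had 9.37 against 10.1 at Zt +6 and 10.9 against 19.4 at Zt +16, so that as deposited its larger genotype difference fell in the dark. That order depended on scale. With the groups brought to an equal median FPKM, the log2 difference of *Cxxc1* (FPKM + 1) was -0.65 at Zt +6 and 0.34 at Zt +16.

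**Figure D1:**
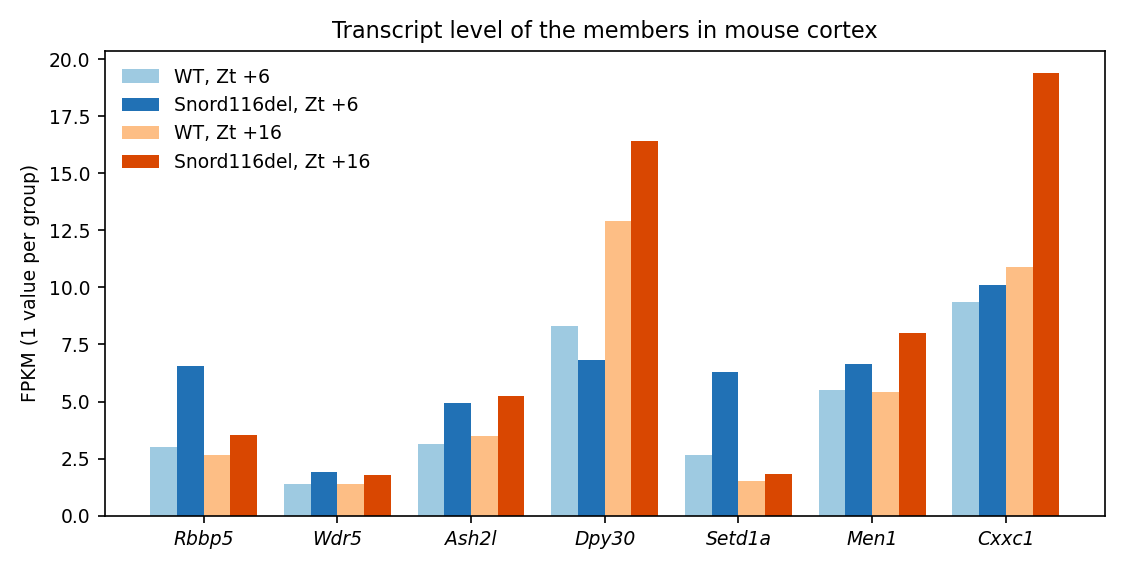
Transcript level (y axis, FPKM, 1 value per group and no error bar) of the 7 members with values in the 4 groups of cortex. *Rbbp5* and *Setd1a* are highest in *Snord116del* at Zt +6 (6.54 and 6.29), and *Cxxc1* in *Snord116del* at Zt +16 (19.4).

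In *Snord116del* against WT at Zt +6, 2 of the 7 members passed the fold rule, *Rbbp5* and *Setd1a*, both higher, and none was lower. Over all tested genes, 56.9% passed it, 49.3% higher and 7.62% lower. *Rbbp5* was at 2.19 times its WT FPKM (log2 difference of FPKM + 1, 0.92) and *Setd1a* at 2.37 times (1.00). The other 5 members differed by log2 0.52 for *Ash2l*, 0.30 for *Wdr5*, 0.24 for *Men1*, 0.10 for *Cxxc1* and -0.25 for *Dpy30*. The median of the 7 members was 0.30, below the median of 0.57 over all tested genes. Relative to that median, *Rbbp5* stood at 0.35, *Setd1a* at 0.43 and *Dpy30* at -0.82 on the log2 scale. Both *Rbbp5* and *Setd1a* therefore lay inside the range of the bulk of the genes, with 69.2% and 73.2% of tested genes below them.

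The differences of the members at Zt +6 followed the length of their transcripts, as those of all genes did. With the tested genes in 5 equal bins by the longest annotated transcript, the median log2 difference went from -0.20 in the shortest bin through 0.34, 0.55 and 0.81 to 1.14 in the longest. *Dpy30*, with 799 bases, is in the shortest bin, where the running median of genes of its length was -0.49. *Setd1a*, with 6487 bases, is in the longest bin, and genes of its length had a running median of 1.13. *Rbbp5*, with 3632 bases, stood 0.22 above the running median of 0.70 at its length, and *Cxxc1*, with 2618 bases, lay below the running median of 0.40 at its length. With that trend removed, none of the 7 members passed the fold rule. The part of length and of RNA quality in these differences was not tested.

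After all 4 groups were brought to an equal median FPKM, the median of all tested genes moved to -0.06 and higher genes fell from 86.6% of those past the fold rule to 38.1%. On that scale *Rbbp5* differed by 0.24 and *Setd1a* by 0.33, not past the rule, while *Dpy30* (-0.97) and *Cxxc1* (-0.65) were lower and passed it. With quantile normalization, where 51.9% of the passing genes were higher, only *Dpy30* passed among the members, at -0.95. The direction given for *Rbbp5* and *Setd1a* was the same with equal medians, equal totals and quantile normalization. Both stayed past the rule with equal totals (0.96 and 1.05) and neither did with equal medians or quantile normalization. *Wdr5*, *Ash2l*, *Men1* and *Cxxc1*, higher as deposited, were lower with equal medians (-0.14 to -0.65) and with quantile normalization (-0.17 to -0.51). With the length trend removed, 6 of the 7 members turned direction, all but *Rbbp5*, and *Setd1a* was at -0.14.

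**Figure D2:**
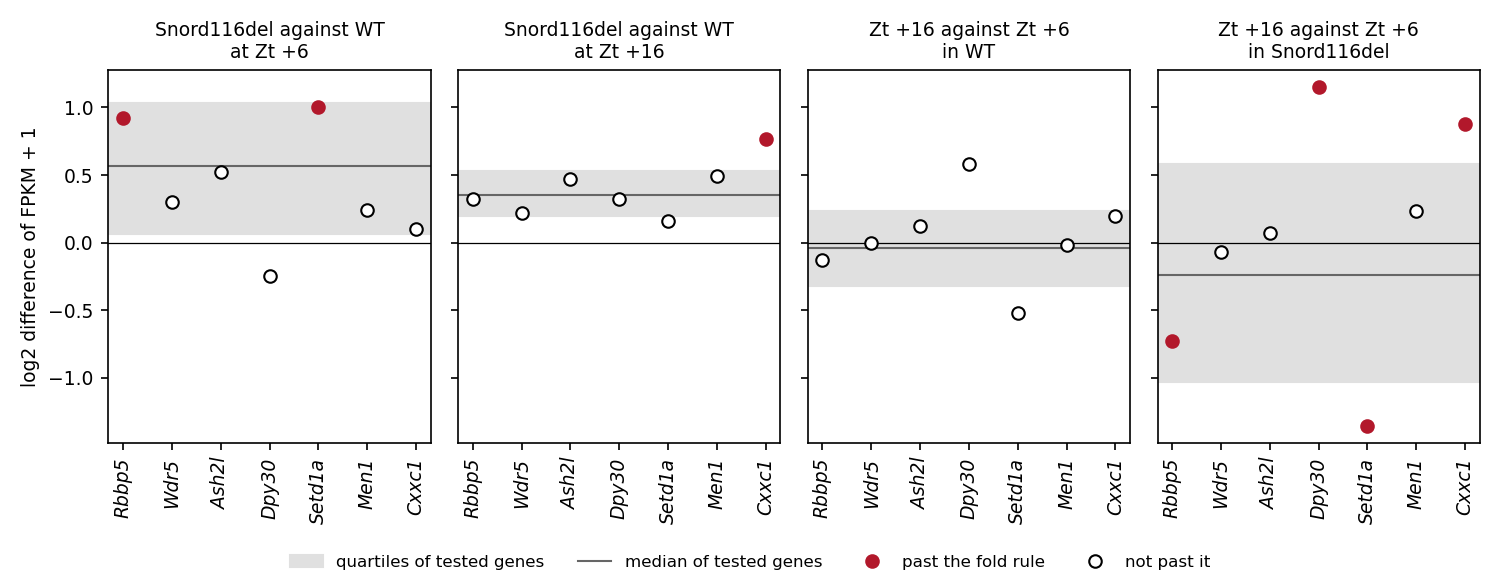
Log2 difference of FPKM + 1 (y axis) of each member in the 4 comparisons, with the median (line) and the quartiles (grey band) of all tested genes. Filled points passed the fold rule. *Rbbp5* and *Setd1a* lie inside the band at Zt +6 (0.92 and 1.00), and *Cxxc1* lies above it at Zt +16 (0.77).

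At Zt +16 all 7 members had a higher value in *Snord116del* than in WT, as did 96.8% of all tested genes. The log2 differences of the members were 0.16 to 0.77. Their direction turned for 6 of them with equal totals and for 4 with equal medians or quantile normalization. Of the members, 1 passed the fold rule, against 19.2% of all tested genes (19.0% higher and 0.204% lower). That member was *Cxxc1*, at 1.78 times its WT FPKM (0.77). Of the tested genes, 93.8% had a smaller difference. *Rbbp5* differed by 0.32 (-0.16 with equal totals) and *Setd1a* by 0.16 (-0.23), both below the median of all tested genes, 0.35, and the median of the members was 0.32. *Men1* (0.49) and *Ash2l* (0.47) lay above it. Summed FPKM was 216422 in WT and 342188 in *Snord116del* at this time, and with the totals made equal *Cxxc1* differed by 0.15. On that scale 23.9% of the genes past the rule were higher, against 98.9% as deposited, 70.4% with equal medians and 43.5% with quantile normalization, and no member passed under any of these 3 scalings. The length trend was weak at this time, with medians of 0.53 in the shortest and 0.23 in the longest bin, and *Cxxc1* stood 0.40 above the genes of its length.

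**Figure D3:**
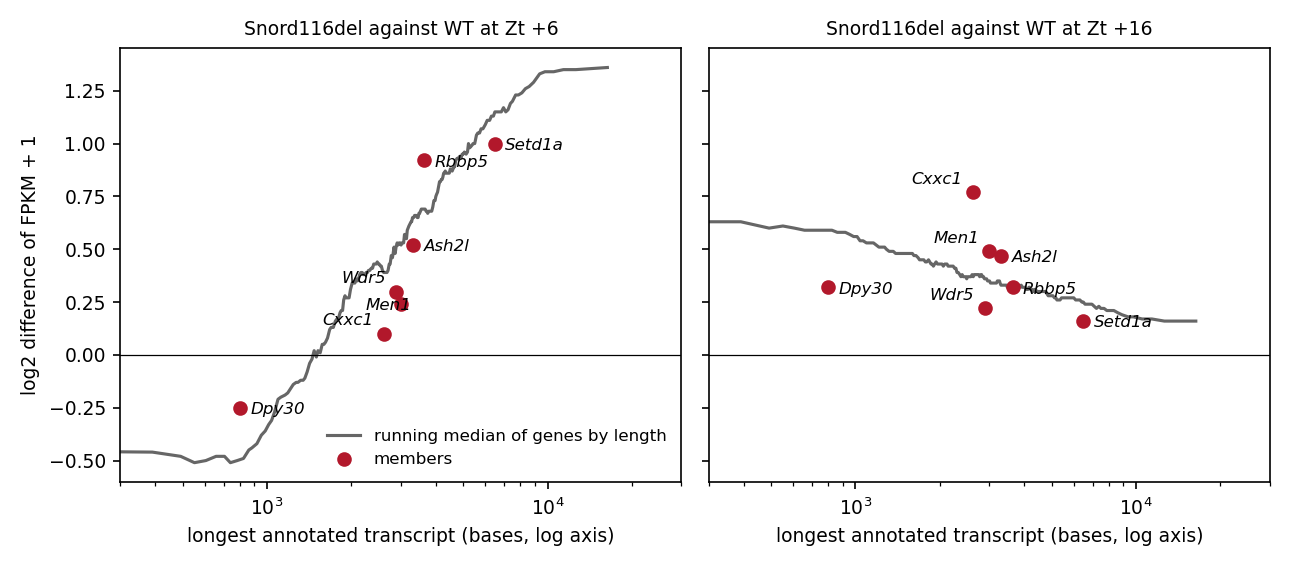
Log2 difference of FPKM + 1 between *Snord116del* and WT (y axis) against the longest annotated transcript (x axis, bases, log scale) at Zt +6 (left) and Zt +16 (right). The line is the running median of 501 tested genes, and the points are the 7 members. At Zt +6 the line climbs with length and the members lie along it, from *Dpy30* (-0.25) to *Setd1a* (1.00).

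As deposited, the genotype difference of *Rbbp5* was larger at Zt +6 than at Zt +16 by 0.60 on the log2 scale, and that of *Setd1a* by 0.84. *Cxxc1* (-0.68), *Dpy30* (-0.57) and *Men1* (-0.25) went the other way, and *Wdr5* (0.08) and *Ash2l* (0.05) hardly moved. Over all tested genes the median of this quantity was 0.22, with quartiles of -0.40 and 0.77. Only *Setd1a* above and *Cxxc1* and *Dpy30* below lay outside the quartiles, and with 1 value per group this difference of differences could not be tested. With the length trend removed, *Setd1a* differed between genotypes by -0.14 at Zt +6 and -0.09 at Zt +16, so its time dependence was mostly gone. On that scale *Dpy30* was at 0.25 and -0.27, the reverse order, *Rbbp5* at 0.22 and -0.01, and *Cxxc1* at -0.30 and 0.40.

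Between the times of day, no member passed the fold rule in WT (16.0% of tested genes did, 5.71% higher and 10.3% lower at Zt +16). The nearest were *Dpy30*, at 12.9 FPKM in the dark against 8.29 in the light (log2 0.58, just under the rule), and *Setd1a*, at 1.54 against 2.65 (-0.52). *Rbbp5* differed by -0.13. With a pseudocount of 0.1 in place of 1 both *Dpy30* (0.63) and *Setd1a* (-0.75) passed. In *Snord116del* cortex 4 of the 7 members passed, against 64.0% of all tested genes (25.0% higher and 39.1% lower in the dark). *Dpy30* was higher at Zt +16 by 1.15 (-0.32 with the length trend removed) and *Cxxc1* by 0.88 (-0.14 with equal totals), and *Rbbp5* was lower by -0.73 and *Setd1a* by -1.36. The bin of the longest genes fell furthest in this comparison, with a median of -1.27, against 0.99 in the shortest, and with the length trend removed *Cxxc1* alone passed. The summed FPKM of markers moved with the time of day as well. In WT it was 203 in the light and 25.8 in the dark for choroid plexus, 33.3 and 14.8 for astrocytes, 8.78 and 5.76 for endothelium, 427 and 700 for oligodendrocytes, 707 and 571 for neurons and 26.3 and 23.8 for microglia. In *Snord116del* it was 185 and 30.9 for choroid plexus, 98.5 and 19.1 for astrocytes, 22.7 and 7.71 for endothelium, 682 and 1002 for oligodendrocytes, 992 and 786 for neurons and 52.2 and 38.2 for microglia. Their part in the differences of the members was not tested. These comparisons share groups with those between genotypes, so their values are not independent of them. Higher genes made up 39.0% of those past the rule in *Snord116del* and 35.7% in WT, but 11.1% and 1.71% with equal totals and 56.9% and 53.1% with equal medians.

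The genes whose 4 values were most like those of *Rbbp5* were *Mapre1*, *4933411K20Rik* and *Pde8b*, at a distance of 0.022, 0.025 and 0.028 over the 4 group values of log2(FPKM + 1), each centred on its mean. *Mapre1*, for a protein that binds growing microtubule ends, was at 1.43, 3.61, 1.26 and 1.82 FPKM in WT and *Snord116del* at Zt +6 and then at Zt +16. The profile is a common one, since 1311 tested genes lay within 0.25 of *Rbbp5* and 3603 within 0.5. No member was among them at 0.5: *Setd1a* was nearest, at 0.53, followed by *Wdr5* (0.60) and *Ash2l* (0.61), and *Dpy30* was farthest, at 1.54.

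The rest of the H3K4 pathway was listed as 44 genes in 6 groups, of which 36 had a mean of at least 1 FPKM. At Zt +6, 23 of these 36 were higher in *Snord116del* and 0 lower, where 49.3% of all tested genes were higher and 7.62% lower. With equal medians 11 were higher and 3 lower, with quantile normalization 15 and 3, with equal totals 25 and 0, and with the length trend removed 1 and 5, settings that were applied to these genes after seeing the data. The values that follow are those as deposited. Of the 4 MLL enzymes, 3 passed: *Mll1* had 4.47 FPKM in WT against 15.6 in the deletion group, *Mll2* 1.68 against 5.70, and *Mll3* 2.98 against 12.2. The other, *Wbp7*, was at 2.75 and 4.29 and did not pass. *Mll1*, *Mll2* and *Mll3* have transcripts of 16470, 19805 and 16901 bases, and the running median at those lengths was 1.36, against their own differences of 1.61, 1.32 and 1.73. The genotype differences of the long MLL enzymes were thus larger than that of *Setd1a* (6487 bases, 1.00), and that of *Wbp7* (8471 bases, 0.50) was smaller.

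Of the subunits found in only some of the complexes, 7 of 8 tested were higher at Zt +6, with *Ncoa6* from 3.57 to 12.5 FPKM (log2 1.56), *Bod1l* from 2.11 to 8.01 (1.54) and *Hcfc1* from 3.78 to 11.6 (1.40) the furthest. The one that did not pass, *Bod1*, with a transcript of 1394 bases, was at 13.6 and 10.2. The 3 tested H3K4 demethylases, which take the methyl groups off, were higher as well, *Kdm5b* from 1.40 to 4.90, *Kdm1a* from 1.78 to 5.48 and *Kdm5c* from 1.22 to 3.68. With the length trend removed 1 of these 3 passed, and none of the MLL enzymes or of the subunits of only some complexes passed as higher. Of the proteins that bind methylated H3K4, 6 of 8 passed, led by *Bptf* (4.22 and 11.9), *Spin1* (18.3 and 36.4) and *Ing1* (4.55 and 9.53). Of the PAF1 complex and the H2B ubiquitin enzymes, which act before the SET1 complexes, 3 of 10 passed, *Cdc73* (1.60 and 6.81), *Rnf20* (2.62 and 8.10) and *Ctr9* (2.58 and 6.86). Of 3 other H3K4 methyltransferases only *Setd7* passed (5.51 and 15.4). At Zt +16, 2 of the 36 pathway genes were higher and 0 lower, against 19.0% and 0.204% of all tested genes. In WT, 0 were higher and 7 lower in the dark than in the light (5.71% and 10.3% of all tested genes), and in *Snord116del* 3 were higher and 20 lower (25.0% and 39.1%). With the length trend removed these became 0 and 1 in WT and 6 and 10 in *Snord116del*.

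In the peak lists, a peak was assigned to a gene when it lay inside it or within 2 kb. *116HG* replicate 1 had 38 peaks at 7 of the 8 members, 36 of them inside the gene, and none at *Wdr5*. Replicate 2 had a peak at 0 of the 8 members, as did the WT NSC and the *Snord116del* *116HG* lists, and *Snord116del* NSC had 1, at *Setd1b*. A peak of replicate 1 is common: 58.3% of 22238 annotated protein-coding genes and 93.6% of the tested genes of the RNA-seq table had at least 1. For replicate 2 the shares were 13.8% and 17.5%, for WT NSC 2.49% and 2.53%, for *Snord116del* *116HG* 2.25% and 2.86%, and for *Snord116del* NSC 7.76% and 10.6%. The lists differ in size, from 78033 peaks in replicate 1 and 11145 in replicate 2 to 1280 in *Snord116del* *116HG*. The share of tested genes with a replicate 1 peak went up with the level of the gene, from 83.1% in the lowest 25% of genes by mean FPKM, which hold *Wdr5*, through 94.5% and 97.6% to 99.3% in the highest 25%. *Wdr5* was the least abundant of the 7 members with a level, and the only one of all 8 with no peak within 2 kb. Within 10 kb all 8 had a replicate 1 peak. Whether the level of *Wdr5* and its lack of a peak within 2 kb are linked was not tested.

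All positions are in mm9. *Rbbp5* (chr1:134373944-134402242, + strand, 14 exons) had 5 replicate 1 peaks. Peak 1 lay over its first exon, 0.09 kb from the gene start, with a fold over the input library of 92.3. Peaks 2 and 3 lay in coding exons 4 and 5, at 51.0 and 70.3, and peaks 4 and 5 in the untranslated part of the last exon, at 31.2 and 51.3. No peak lay in an intron of *Rbbp5*, although the gene spans 28.3 kb and its longest transcript holds 3632 bases. Together the peaks covered 19.4% of its exon bases. The nearest replicate 2 peak was 58.1 kb away.

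The sequences of the 2 coding peaks of *Rbbp5* and of 3 coding peaks at *Dpy30*, *Setd1a* and *Setd1b* are printed to show how much of each peak is coding. They were read from the mm9 reference genome, 5′ to 3′ on the strand of the gene, with coding bases in capitals and intron bases in lower case.
Rbbp5 peak 2, chr1:134386174-134386304, + strand: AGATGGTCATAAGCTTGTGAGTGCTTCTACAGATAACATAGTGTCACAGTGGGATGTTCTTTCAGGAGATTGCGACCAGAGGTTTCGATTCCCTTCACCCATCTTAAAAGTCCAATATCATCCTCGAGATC
Rbbp5 peak 3, chr1:134387033-134387143, + strand: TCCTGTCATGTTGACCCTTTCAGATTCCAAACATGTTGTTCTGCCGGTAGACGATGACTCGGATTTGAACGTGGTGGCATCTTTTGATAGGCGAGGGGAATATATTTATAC
Dpy30 peak 2, chr17:74707096-74707188, - strand: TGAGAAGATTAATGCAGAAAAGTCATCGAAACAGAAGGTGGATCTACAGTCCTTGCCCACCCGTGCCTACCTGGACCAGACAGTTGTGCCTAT
Setd1a peak 7, chr7:134931002-134931107, + strand: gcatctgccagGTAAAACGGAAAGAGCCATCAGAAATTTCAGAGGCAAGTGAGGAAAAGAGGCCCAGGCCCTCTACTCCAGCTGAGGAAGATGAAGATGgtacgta
Setd1b peak 3, chr5:123608560-123608733, + strand: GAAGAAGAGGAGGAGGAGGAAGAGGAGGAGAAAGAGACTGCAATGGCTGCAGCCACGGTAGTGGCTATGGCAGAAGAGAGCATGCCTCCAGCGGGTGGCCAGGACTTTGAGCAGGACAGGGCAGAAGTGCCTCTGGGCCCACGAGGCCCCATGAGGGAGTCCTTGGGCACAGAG
The *Rbbp5*, *Dpy30* and *Setd1b* peaks held coding bases alone, and *Setd1a* peak 7 covered exon 10 with a few intron bases on each side, 88 of its 106 bases being coding.

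Of the other core subunits, *Ash2l* (chr8:26926663-26958166, - strand) had 3 peaks, 1 over its first coding exon (fold 71.8) and 2 in the untranslated end of its last exon (30.8 and 61.6). *Dpy30* (chr17:74698814-74723284, - strand) had 3, in an untranslated exon (71.8), in coding exon 4 (71.8) and in the last exon (43.1). Its peaks covered 32.6% of the exon bases, and *Cxxc1* with 4 peaks had 32.8%. *Setd1a* (chr7:134920184-134943636, + strand) had the most, 10, of which 8 lay over coding exons, with folds from 24.6 to 71.8. Peaks 5 to 10 of *Setd1a* lie where *Hsd3b7* is annotated too, and the first, outside the gene, lies in an exon of *Orai3*. Whether the FPKM counting used strand is not given in the sources used here, so the level of *Setd1a* is uncertain to that extent. *Men1* (chr19:6334979-6340891, + strand) and *Cxxc1* (chr18:74375785-74381145, + strand), the short genes of the set, had 4 peaks each. *Men1* had peaks in coding exons 3, 4 and 7 and in the last exon, and *Cxxc1* in the first exon, in exons 10 and 14 and over the whole of the last exon (113).

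**Figure D4:**
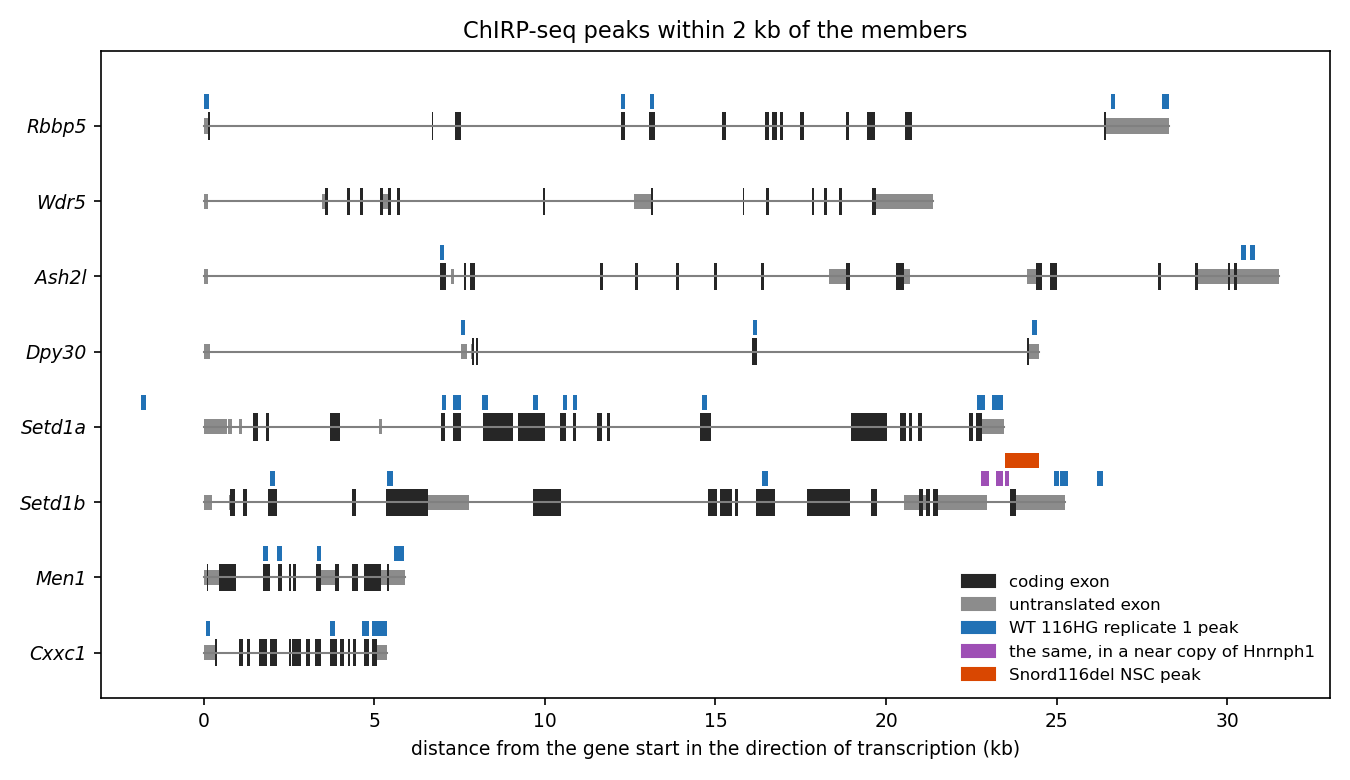
Peaks within 2 kb of the 8 members, on the gene drawn in the direction of transcription (x axis, kb from the gene start), with coding exons in black and untranslated exons in grey. Blue marks are *116HG* replicate 1 peaks, purple marks those in a near copy of *Hnrnph1*, and the orange mark is the *Snord116del* NSC peak. The blue marks inside the genes stand over exons, 1 mark each at *Setd1a* and *Setd1b* lies outside the gene, *Wdr5* has none, and the purple and orange marks lie together near the end of *Setd1b*.

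The 36 replicate 1 peaks inside the members lay in exons with few exceptions. The middle base was in an exon for 34 of 36 (94.4%, exact 95% interval 81.3 to 99.3, counting error only), in coding sequence for 20 and in untranslated exon for 14. The other 2 were in an intron of *Setd1b*. Exons make up 22.4% of the bases of these genes. Of all replicate 1 peaks inside protein-coding genes, 83.8% had their middle base in an exon, against 4.70% in replicate 2, 8.74% in WT NSC, 28.0% in *Snord116del* *116HG* and 40.5% in *Snord116del* NSC, while 7.74% of the bases of these genes are exon. The member peaks were thus near the other peaks of their own library, while the 2 *116HG* libraries of WT brain stood far from each other. By bases rather than peaks, 91.7% of the bases of the member peaks were exon, against 85.7% over the replicate 1 list, and 23 of the 36 peaks lay wholly in exons. Neighbouring peaks share an exon and are not independent.

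**Figure D5:**
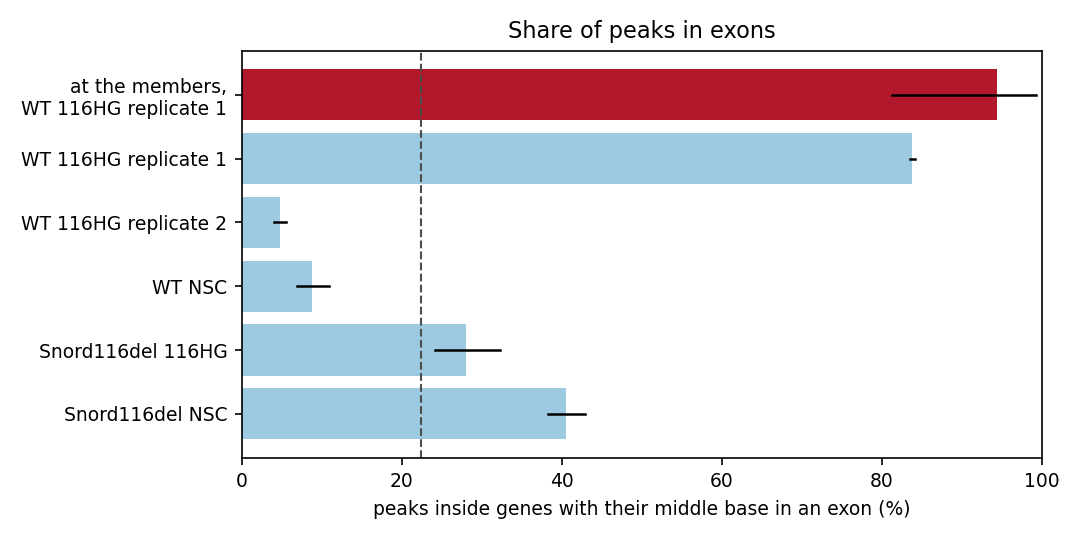
Share of peaks inside genes with their middle base in an exon (x axis, %), for the 36 replicate 1 peaks at the members (red) and for all peaks inside protein-coding genes in the 5 lists (blue). Black lines are exact 95% intervals, and the dashed line is the share of the members' bases that are exon, 22.4%. The members (94.4%) lie by their own library (83.8%) and far from replicate 2 (4.70%).

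The strongest member peak was at *Setd1b* (chr5:123592202-123617444, + strand), which had 9 replicate 1 peaks. Peak 4 had a fold over input of 349, above 99.1% of the replicate 1 list, and the next strongest member peak, at *Cxxc1*, had 113. Peak 4, in an exon outside the gene's main coding transcript, and the intron peaks 5 (68.4) and 6 (66.3) stand apart in sequence. The middle 32 bases of each occur at 1 more place in the genome, in the last exon of *Hnrnph1* on chromosome 11 in the opposite orientation, whereas those of the other 35 member peaks occur once. *Hnrnph1* encodes an RNA-binding protein that acts in splicing. Placed without gaps on the sequence of *Hnrnph1*, peak 6 had 73 of its 74 bases identical (98.6%), peak 4 had 200 of 246 (81.3%) and peak 5 had 172 of 227 (75.8%). Words of 20 bases shared with *Hnrnph1* covered 89.8%, 94.7% and 95.9% of peaks 4, 5 and 6, and 0% of the other 6 peaks of *Setd1b*.

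The stretches of *Hnrnph1* that match peaks 5 and 6 lie under 1 wide replicate 1 peak (chr11:50199400-50200024, 625 bases, fold 201) in the untranslated part of that exon, and the stretch that matches peak 4 starts under it and runs a little past the end of the peak and of the gene. *Hnrnph1* had 12 replicate 1 peaks in all, with a fold of up to 328, and none in the other 4 lists. Its level was 25.7 and 52.4 FPKM in WT and *Snord116del* at Zt +6 and 27.7 and 33.3 at Zt +16, above every member. Reads of such near copies can be placed at either, and how many of the reads behind these 3 peaks were placed so was not tested. Without the 3 peaks, a comparison chosen after seeing the data, *Setd1b* kept 6 peaks, 33 of 33 peaks inside members were in exons (100%, exact 95% interval 89.4 to 100), 97.2% of their bases were exon, and the highest fold was 113.

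The *Snord116del* NSC peak at *Setd1b* (chr5:123615687-123616671, 985 bases, fold 21.0) starts in the same stretch and covers replicate 1 peak 6. Of its bases, 10.1% were in words shared with *Hnrnph1*, and the rest ran on over the last exon of *Setd1b*. It was the 1 control peak at any member. *Setd1a* had another peak of this list within 10 kb.

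A replicate 1 peak was taken as replicated when a replicate 2 peak lay within 10 kb. By that rule 1 of the 8 members had a replicated peak, *Men1*, against 10.6% of the protein-coding genes and 18.1% of the tested genes. Its peaks 1 and 2, over coding exons 3 and 4 with folds of 40.6 and 47.2, were 8.53 and 8.95 kb from a replicate 2 peak that lies 6.79 kb outside the gene. How often the sequence of that replicate 2 peak occurs in the genome is not reported here, so it should not be read as uniquely placed. Peaks 1 and 2 of *Men1* are printed here, since the call for *Men1* rests on them and on that 1 replicate 2 peak (mm9, + strand, coding bases in capitals).
Men1 peak 1, chr19:6336715-6336875: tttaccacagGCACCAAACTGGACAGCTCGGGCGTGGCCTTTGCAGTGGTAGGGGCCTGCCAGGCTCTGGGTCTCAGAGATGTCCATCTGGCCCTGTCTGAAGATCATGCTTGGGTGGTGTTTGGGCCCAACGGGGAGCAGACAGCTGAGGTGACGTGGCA
Men1 peak 2, chr19:6337143-6337259: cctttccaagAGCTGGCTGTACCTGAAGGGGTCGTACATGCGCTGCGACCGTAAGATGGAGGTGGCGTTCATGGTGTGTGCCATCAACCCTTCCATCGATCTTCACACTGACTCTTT
Within 2 kb, or with direct overlap, no member had a replicated peak, and within 50 kb *Cxxc1* was added. For the other members the nearest replicate 2 peak was between 11.3 and 171 kb away.

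Member peaks had a median fold over input of 51.3, near the 55.3 of the whole list, and a median width of 156 bases against 157. Only 3 of the 38, at *Rbbp5*, *Setd1b* and *Cxxc1*, were in the upper quartile of the list by fold (85.4 and above). The G and C content of the member peaks had a median of 53.7% and ran from 29.3% to 75.0%, against medians of 47.7% for all replicate 1 peaks, 35.2% for replicate 2, 39.3% for WT NSC and 61.8% and 61.3% for the *Snord116del* *116HG* and NSC lists. The 7 tested members had a median of 4.00 replicate 1 peaks, as all tested genes did, and 1.38 peaks per kb of exon against 1.31.

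Of the 44 pathway genes, of which 36 are tested genes, 43 had a replicate 1 peak, 10 a replicate 2 peak and 7 a replicated peak. The shares were 93.6%, 17.5% and 18.1% of the tested genes, and 58.3%, 13.8% and 10.6% of the protein-coding genes. In the control lists 1 of the 44 had a WT NSC peak, 5 a *Snord116del* NSC peak and 0 a *Snord116del* *116HG* peak. The shares were 2.53%, 10.6% and 2.86% of the tested genes, and 2.49%, 7.76% and 2.25% of the protein-coding genes. The replicated ones were *Mll3*, *Smyd3*, *Kdm5c*, *Rtf1*, *Ube2a*, *Ing1* and *Bptf*. Direct overlap of both replicates was seen at *Smyd3* alone among these, at 2 places in introns. *Mll1* with 35 and *Mll2* with 25 replicate 1 peaks had no replicate 2 peak.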

How the data were processed

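Total RNA of 9 cortex samples and DNA of 5 ChIRP libraries were used. Per the labels and the study's methods, the authors aligned RNA reads with TopHat2 2.0.5 to mm9 and deposited 1 Cuffdiff 2.0.2 FPKM value per gene and group. The deposited log2 fold changes and q-values are the authors' comparison and were not used. They aligned ChIRP reads with Bowtie2 2.0.0, called peaks with MACS 1.4.2 per library against a WT input, and filtered them. The deposited fold over input of each peak is a ratio. The list of replicate 2 holds positions only. Read totals are given in the study's methods but not in the deposited tables, and depth was not used here.

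Differences are log2(FPKM + 1), which understates changes of low genes. Genes were matched by symbol to GENCODE genes on NCBIM37 (mm9) for 21853 of 23235 genes and 98.7% of those tested. Running medians over transcript length took 501 genes. Intervals are exact (Clopper-Pearson). The named genes are the members, up to 3 genes per list with the largest difference at Zt +6, the 3 profiles nearest to *Rbbp5* and list genes with a replicated peak. Others, such as *Hnrnph1*, *Ipw*, *Wbp7* and *Bod1*, were named after their values were seen. The members and lists were chosen with earlier results of these data known. Steps were tested on simulated data and run with scipy 1.17.1, pandas 2.3.3, numpy 2.4.6 and matplotlib 3.10.9 under Python 3.11.15. Alternatives covered the pseudocount, low-value filter, scale, fold, transcript length, peak distance, peak threshold and replicate window. No protein sequence is shown. A gene of the comparison lists and a peak sequence are not reported here.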

Additional observations from a re-analysis of the deposited data

How the results depend on the processing

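No paired analysis was possible because the RNA-seq table holds 1 value per group and no result comes from a test. The counts of members past the fold rule moved as follows. At Zt +6 the count was 2, both higher, and 3 with a pseudocount of 0.1, which added *Ash2l*. It was 1 with quantile normalization, which was *Dpy30*, lower, and 0 at 2-fold and 0 with the length trend removed. With equal medians it was again 2, but these were *Dpy30* and *Cxxc1*, both lower, and the median of the members was -0.21 in place of 0.30. At Zt +16 the count of 1 became 0 with equal medians, equal totals, quantile normalization, at 2-fold and with the length trend removed. Between times in WT, 0 became 2 with a pseudocount of 0.1. It became 1 with equal medians (*Dpy30*, higher at Zt +16, 0.71) and 1 with equal totals (*Setd1a*, lower, -0.86). In *Snord116del*, 4 (2 higher and 2 lower) became 5 with equal totals, all lower, 3 with quantile normalization, 2 at 2-fold and 1 with the length trend removed, and was 4 with equal medians, 3 of them higher. Of the 28 values of members over the 4 comparisons, the direction turned for 10 with equal medians, 11 with equal totals, 9 with quantile normalization and 12 with the length trend removed, and for 0 with a pseudocount of 0.1 or no filter. Those past the rule on one scale or the other were *Cxxc1* (-0.65) at Zt +6 with equal medians, *Setd1a* at Zt +6 (-0.14) and *Dpy30* between times in *Snord116del* (-0.32) with the length trend removed, and, between times in *Snord116del* with equal totals, *Cxxc1* (-0.14), *Ash2l* (-0.83) and *Men1* (-0.72), where the median of the members was -0.76. How many of all tested genes turned direction was not counted, so these turns are not shown to be particular to the members. The cause of the turns was not tested. Without the filter on low values all 28 values of members kept their direction and their side of the rule.

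Members with a replicate 1 peak went from 7 to 3 in the upper quartile of the fold, and to 8 within 10 kb, which added *Wdr5*. Within 10 kb, 1 member had a replicate 2 peak and 2 a *Snord116del* NSC peak, and in the upper quartile 0 had the latter. Members with a replicated peak were 1, and 0 with direct overlap, within 2 kb, in the upper quartile or when replicate 2 peaks were required at the gene, and 2 within 50 kb. Leaving out a replicate gave 0 to 7. The share of member peaks in exons was 100% in the upper quartile (3 of 3 peaks) and 100% without the 3 peaks in the copy of *Hnrnph1*, which was added after seeing the data. With 1 value per group and 1 list per library, these counts carry no measure of the spread between mice or libraries. That is a limit on all of them, and each is a description of these libraries.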

Other observations

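The other genes named for binding the retinoblastoma protein do not belong to the H3K4 complexes, and they were listed for comparison with *Rbbp5*. Of 4 with a mean of at least 1 FPKM, 3 were higher in *Snord116del* at Zt +6: *Rbbp7* at 6.18 FPKM in WT against 16.8 in the deletion group (log2 1.31), *Rbbp6* at 3.22 and 7.76 (1.05) and *Rbbp9* at 2.75 and 5.84 (0.87), where 49.3% of all tested genes were higher. With equal medians 0 of the 4 passed, and with quantile normalization or the length trend removed *Rbbp7* alone did. *Rbbp4*, which with *Rbbp7* encodes a histone chaperone of several chromatin complexes, was at 2.69 and 3.86 and did not pass. None of the 4 passed at Zt +16. *Rbbp7*, with a transcript of 2244 bases, lay further above the running median of its length (0.37) than *Rbbp5* did (0.92 against 0.70). Of these genes *Rbbp6* had a replicated peak, with a replicate 2 peak in an intron 2.67 kb from a replicate 1 peak in an untranslated exon.

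*Hoxa6*, *Hoxa7*, *Hoxa9*, *Hoxa10* and *Meis1*, known targets of the MLL complexes, all had a mean under 1 FPKM, and none had a peak in either WT *116HG* list. *Hoxa6* had a peak in the *Snord116del* *116HG* list. Among other proteins the study probed for retrieval with *116HG*, *Hnrnpu* had 20.4 FPKM in WT against 42.7 in the deletion group at Zt +6 and *Rbfox2* had 8.42 against 18.1, so *Rbbp5* was not alone among these in being higher as deposited. Both *Hnrnpu* and *Rbfox2* stayed higher and past the fold rule with equal totals. They did so with quantile normalization too, a setting in which *Rbbp5* (0.26) did not pass. With equal medians neither *Hnrnpu* nor *Rbfox2* passed (0.23 and 0.25), and with the length trend removed *Rbfox2* was at -0.13. *Gapdh* was lower at Zt +6 (1386 and 843). It stayed lower and past the rule with equal medians, equal totals and the length trend removed, but turned with quantile normalization (0.14). At Zt +16 *Gapdh* was higher as deposited (1694 and 3368), but passed the rule under none of these scalings. At 2-fold it passed at neither time. *Rbfox2* had a replicate 1 and a replicate 2 peak that overlapped in an intron, which no member showed.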
